A study of Homo sapiens with 4 samples.

Results

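Matrix metalloproteinases (MMPs) are zinc-dependent endopeptidases that cut collagens, laminins, fibronectin and other proteins outside the cell, and tissue inhibitors of metalloproteinases (TIMPs) are secreted proteins that block their active site. Most MMPs leave the cell as latent proenzymes, so the RNA level describes supply of the enzyme and not its activity. In skin, keratinocytes at the edge of a wound are known to make several MMPs while they migrate over the dermal matrix. The genes described here were 7 MMPs (MMP1, MMP9, MMP10, MMP13, MMP14, MMP15 and MMP28) and 3 TIMPs (TIMP1, TIMP2 and TIMP3), taken by gene name, and all 10 were found among the 29209 genes listed in each library.

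The cells were HaCaT, a human keratinocyte line that became immortal on its own in culture, grown in DMEM with fetal bovine serum, penicillin and streptomycin. The TCN1_OE group (2 libraries) was a stable line made with lentivirus to overexpress TCN1, a secreted vitamin B12-binding protein, and the NC group (2 libraries) was the negative control line. The labels do not give the promoter of the construct, what the negative control carried, whether a line was 1 clone, or whether the 2 libraries of a group were separate cultures, so the p-values reflect the spread of these 4 libraries alone, and that spread may be technical. The question was which genes differ between the lines, by polyA RNA sequencing read as counts and FPKM per gene, FPKM being the count corrected for gene length and for the library total.

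The libraries held 16586500 and 14756073 counts in TCN1_OE and 19973550 and 11593377 counts in NC. TCN1 had 1700 and 1253 counts in TCN1_OE and 50 and 17 counts in NC. All 6 keratinocyte markers were detected in every library, with KRT14 between 3097 and 3569 FPKM. All 6 had a positive log2 fold change, TCN1_OE over NC, with a median of 0.11. For 4 of them (KRT15, DSG3, KRT5 and DSP) the FPKM of the groups did not overlap, each higher in TCN1_OE. Of all 15113 genes tested, 21.7% were higher without overlap in FPKM. The KRT5 groups overlapped on CPM with TMM factors (counts scaled to the library total after its adjustment by a normalization factor for each library). Its values there were 9122 and 10103 in TCN1_OE and 8389 and 9203 in NC. The basal keratin KRT15 had 974.95 and 1038 FPKM in TCN1_OE and 667.0 and 755.9 FPKM in NC, a log2 difference of 0.50 ± 0.09 at an adjusted p of 0.054 (edgeR). It lay higher in the same libraries as MMP13, MMP1 and TIMP3, and its part in those results was not tested. Of the markers of other skin cells, the summed level was 1.83 to 2.06 FPKM in TCN1_OE and 1.89 to 2.15 FPKM in NC for 4 fibroblast genes, nearly all of it COL1A1. The sum for 5 leukocyte genes was 2.27 to 3.21 FPKM in TCN1_OE and 2.35 to 2.66 FPKM in NC, nearly all of it CD14. The leukocyte gene PTPRC had 6 and 2 counts in TCN1_OE and 0 in both NC libraries. CD3E had 3 and 7 counts in TCN1_OE and 7 and 0 in NC. ITGAM had 16 and 19 counts in TCN1_OE and 19 and 10 in NC. CD68 had 0 counts in both TCN1_OE libraries and 1 and 0 in NC, but 85.8% of its exonic bases are under other annotated genes. The sums were 2.90 to 3.07 FPKM in TCN1_OE and 2.73 to 2.75 FPKM in NC for 5 melanocyte genes, and 0.984 to 1.36 FPKM in TCN1_OE and 0.898 to 1.28 FPKM in NC for 3 endothelial genes.

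Promoter sequence was at hand for 5 of the 10 genes (MMP10, MMP14, MMP15, TIMP1 and TIMP3; RefSeq, GRCh38.p14), and 3 are shown because they stand for different places in the results: MMP14 was the most abundant transcript, MMP10 was among the scarcest, and TIMP3 had the largest difference of the inhibitors. Each stretch is 100 bases long, 5′ to 3′ on the gene's strand, and ends before the first annotated exon base. Capitals mark matches, on either strand, to the AP-1 motif TGANTCA, the TATA motif TATAAA or the GC box GGGCGG. The stretches lie at chr11:102780629-102780728 on the minus strand, chr14:22836457-22836556 on the plus strand and chr22:32801601-32801700 on the plus strand.
MMP10: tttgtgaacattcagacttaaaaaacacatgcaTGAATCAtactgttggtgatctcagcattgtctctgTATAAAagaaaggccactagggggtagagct
MMP14: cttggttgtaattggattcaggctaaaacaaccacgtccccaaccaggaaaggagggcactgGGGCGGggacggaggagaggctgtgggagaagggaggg
TIMP3: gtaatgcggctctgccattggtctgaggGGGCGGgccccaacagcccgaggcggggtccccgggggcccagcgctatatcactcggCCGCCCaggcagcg

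Over the 250 bases before the start, the AP-1 and the TATA motif were each found in 1 of these 5 genes, MMP10. There the TATA match began 31 bases before the start and the AP-1 match 67 bases before it. The other 4 genes had at least 1 GC box. Of 35116 promoters of the same length, 6.57% held the AP-1 motif, 10.7% the TATA motif and 42.6% the GC box. The MMP10 stretch was 39% G and C, against 59% for MMP14 and 73% for TIMP3. A match is a description of the letters and not evidence of a bound factor.

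The members spanned more than 2 orders of magnitude in level per length, and all 10 lay above the level that 3 counts give in every library. By mean FPKM over the 4 libraries the order was MMP14, MMP13, TIMP1, MMP1, TIMP3, MMP15, TIMP2, MMP10, MMP28 and MMP9. The ranges over the 4 libraries overlapped between neighbours for MMP14 and MMP13, for TIMP3 and MMP15, and for MMP10 and MMP28, and were separate for the other neighbours. MMP14 lay above 98.4 to 99.0% of all listed genes in its library, and MMP9 above 36.4 to 49.8%.

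**Figure D1:**
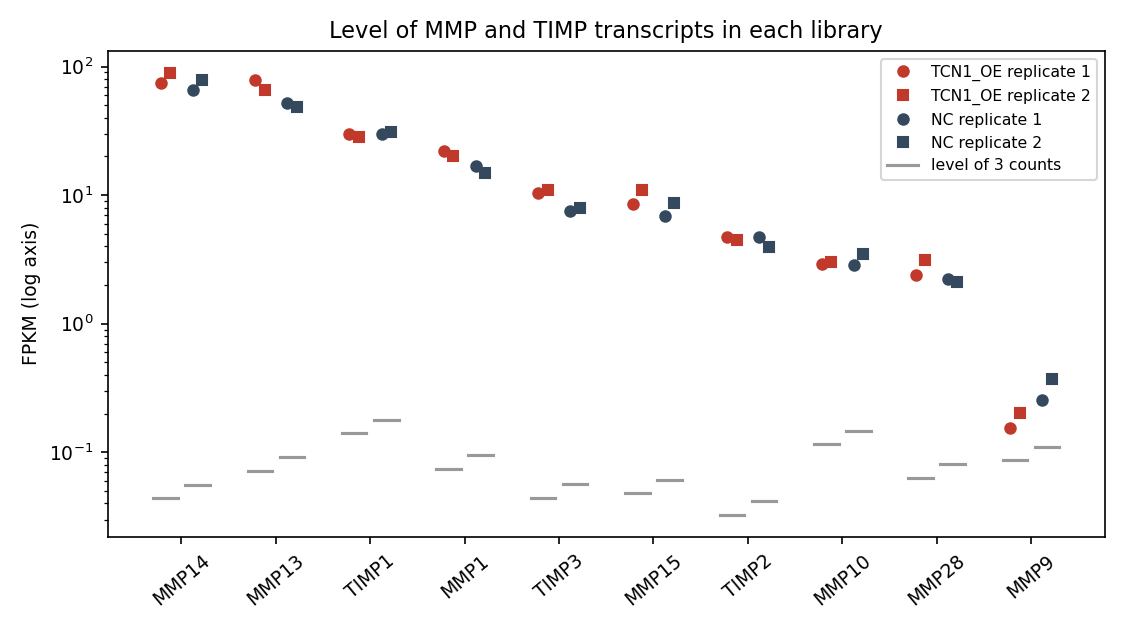
FPKM (log axis) of each of the 10 genes in each library, TCN1_OE in red and NC in dark blue, circles for replicate 1 and squares for replicate 2; a grey line marks the level that 3 counts give in the shallower library of the group. MMP14 and MMP13 stand highest, between 48.3 and 89.4 FPKM, and MMP9 is the nearest to its line, at 0.155 to 0.369 FPKM.

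None of the 9 members that entered the edgeR quasi-likelihood test passed an adjusted p under 0.05 in either direction, where 0.285% of 15113 genes were higher and 0.212% lower. MMP9 was not tested, because its counts were below the filter. In bulk RNA, a different share of expressing cells and a different amount of RNA per cell cannot be told apart. At an unadjusted p under 0.05, 3 of the 9 (MMP13, TIMP3 and MMP1) were higher and 0 lower, against 6.0% of all genes tested higher and 6.81% lower. The median log2 fold change, TCN1_OE over NC, was 0.32 over the 9 members and 0.00 over all genes tested. It was 0.05 over the 7 tested MMP genes outside the set. Because the members were chosen with earlier results of these data known, these contrasts are descriptions and not tests of the set. Among the 9 tested members, the FPKM of the 2 groups did not overlap for MMP13, MMP1, TIMP3 and MMP28, each higher in TCN1_OE, and for TIMP1, lower in TCN1_OE; over all genes tested the shares were 21.7% higher and 21.0% lower. MMP9, outside the test, was also lower in both TCN1_OE libraries. For a single gene, the smallest exact two-sided permutation p that 2 against 2 libraries allow is 0.333, and edgeR therefore relies on a spread shared across genes.

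**Figure D2:**
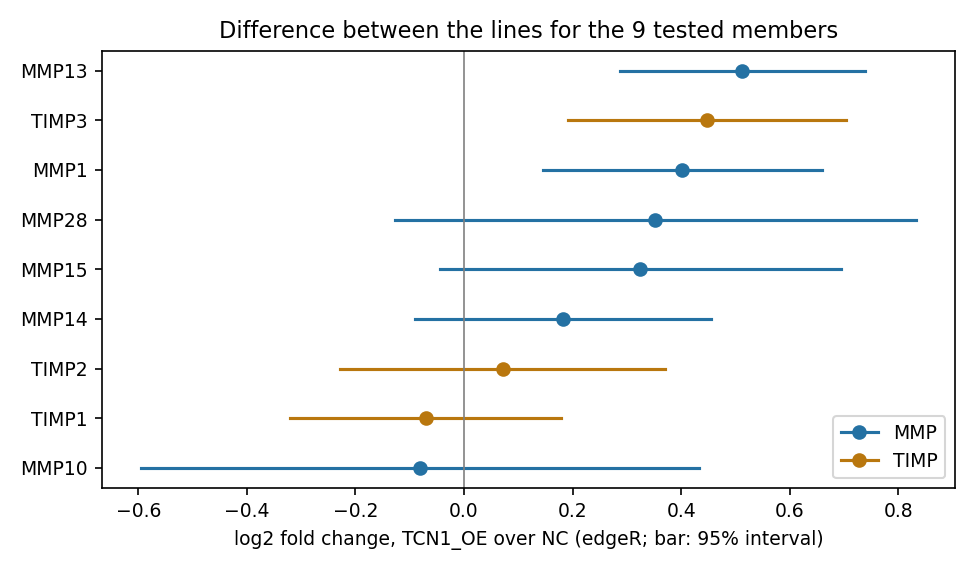
Log2 fold change of the 9 tested members, TCN1_OE over NC, with its 95% interval from edgeR; MMPs are blue and TIMPs are ochre. The unadjusted intervals of MMP13, TIMP3 and MMP1 lie above 0, and those of the other 6 include 0.

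The secreted collagenases are MMP13 and MMP1. MMP13 (collagenase 3; ENSG00000137745, chr11:102942995-102955734 of GRCh38, minus strand) cuts fibrillar collagens and is known from chronic wounds and squamous carcinomas rather than from intact epidermis. It had 3671 and 2753 counts in TCN1_OE and 2956 and 1587 counts in NC, or 78.2 and 65.9 FPKM in TCN1_OE and 52.3 and 48.3 FPKM in NC. Both TCN1_OE libraries were above both NC libraries.

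The group means of MMP13 were 72.0 ± 8.68 FPKM in TCN1_OE and 50.3 ± 2.77 FPKM in NC (SD, n = 2 each). That is a log2 fold change of 0.51 ± 0.10, or 1.43-fold with a 95% interval of 1.22 to 1.67, at an adjusted p of 0.0638 (edgeR). It had the smallest p of the 9 members, and its side of the threshold depended on the test. The adjusted p was 0.00436 with DESeq2 and 0.000646 with edgeR without a filter. It was 0.063 with edgeR and RLE factors, and 0.0614 with edgeR on genes of at least 1 FPKM. With limma it was 0.203 on log2(FPKM + 0.5) and 0.202 on log2(FPKM + 0.1). The log2 fold change was 0.39 without TCN1_OE replicate 1 and 0.62 without TCN1_OE replicate 2. It was 0.56 without NC replicate 1 and 0.46 without NC replicate 2. DESeq2 called 0.815% of its 11654 genes higher, and edgeR without a filter 0.685% of 29209.

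MMP1 (collagenase 1, ENSG00000196611) is the enzyme that human keratinocytes are known to switch on when they touch dermal type I collagen. It lies in the same gene cluster, at chr11:102789920-102798160, and 7.6% of its exonic bases are under WTAPP1 on the opposite strand, which these unstranded libraries cannot separate. It had 22.0 and 20.2 FPKM in TCN1_OE and 16.9 and 14.9 FPKM in NC, again with no overlap. On the log2 scale MMP1 differed by 0.40 ± 0.11 (edgeR adjusted p 0.181), and the 95% interval ran from 1.11-fold to 1.58-fold. It did not pass in any of the 10 alternatives without a replicate term, where its log2 fold change lay between 0.32 and 0.49.

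MMP10 (stromelysin 2, ENSG00000166670, chr11:102770503-102780628), which cuts laminins and fibronectin and can activate procollagenases, is the neighbour of MMP1. It had 85 and 79 counts in TCN1_OE and 100 and 71 counts in NC, or 2.91 and 3.04 FPKM in TCN1_OE and 2.85 and 3.48 FPKM in NC. The NC libraries enclosed the TCN1_OE libraries. The log2 fold change of -0.08 ± 0.23 had a 95% interval from 0.662-fold to 1.35-fold and an edgeR adjusted p of 0.924, and it was 0.07 without NC replicate 2.

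These 3 genes belong to a cluster of MMP genes on the long arm of chromosome 11, of which 7 were analysed here over 435.2 kb, at chr11:102520508-102955734. Neighbours in it differed widely in level. Along the chromosome the mean FPKM was 0.328 in TCN1_OE and 0.343 in NC for MMP7, 0.0118 in TCN1_OE and 0.0365 in NC for MMP20, then 2.98 in TCN1_OE and 3.16 in NC for MMP10. It was 21.1 in TCN1_OE and 15.9 in NC for MMP1, and 0.154 in TCN1_OE and 0.081 in NC for MMP3, the stromelysin that lies between MMP1 and MMP12. MMP12, the macrophage elastase, had 7.56 in TCN1_OE and 6.07 in NC, and MMP13, at the far end, had 72.0 in TCN1_OE and 50.3 in NC. MMP3 thus stood at 0 to 6 counts in a library while MMP1 beside it had at least 473.

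MMP9 (gelatinase B, ENSG00000100985, chr20:46008908-46016561), which cuts denatured collagen and type IV collagen of basement membranes, was close to the detection level. It had 6 and 7 counts in TCN1_OE and 12 and 10 counts in NC, or 0.155 and 0.203 FPKM in TCN1_OE and 0.257 and 0.369 FPKM in NC. At its gene length of 2336 bp, 3 counts correspond to 0.0774 and 0.087 FPKM in TCN1_OE and 0.0643 and 0.111 FPKM in NC.

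The exact 95% Poisson intervals of MMP9, which cover counting error only, ran from 0.0568 to 0.337 and from 0.0816 to 0.418 FPKM in TCN1_OE and from 0.133 to 0.449 and from 0.177 to 0.679 FPKM in NC. The counts of the TCN1_OE libraries were lower, but the intervals overlapped. With no filter, edgeR gave a log2 fold change of -0.79 ± 0.74 with an adjusted p of 0.828. In addition, 18.4% of the exonic bases of MMP9 are under SLC12A5-AS1 on the opposite strand. Reads from those bases may have been counted for either gene or for neither, which was not tested.

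The membrane-anchored MMPs included the most abundant member. MMP14 (MT1-MMP, ENSG00000157227, chr14:22836557-22849027) cuts collagen at the cell surface and activates the proenzymes of MMP2 and MMP13. It had 74.7 and 89.4 FPKM in TCN1_OE and 65.3 and 79.0 FPKM in NC, from 5725 and 6099 counts in TCN1_OE and 6031 and 4235 counts in NC. The groups overlapped, and in both lines replicate 2 was the higher library. Between the lines MMP14 differed by 0.18 ± 0.12 on the log2 scale (edgeR adjusted p 0.582), with a 95% interval from 0.939-fold to 1.37-fold. Each library moved this value: it was 0.03 without TCN1_OE replicate 2, 0.04 without NC replicate 1, 0.31 without TCN1_OE replicate 1 and 0.33 without NC replicate 2.

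MMP15 (MT2-MMP, chr16:58025566-58046901), a second transmembrane MMP, had 8.52 and 11.0 FPKM in TCN1_OE and 6.85 and 8.75 FPKM in NC. It showed the same layout as MMP14, with replicate 2 higher in both lines and overlapping groups. Its log2 fold change of 0.32 ± 0.17 had an adjusted p of 0.45 (edgeR). It was 0.12 without TCN1_OE replicate 2, 0.14 without NC replicate 1, 0.50 without TCN1_OE replicate 1 and 0.51 without NC replicate 2.

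MMP28 (epilysin, chr17:35756249-35795707), a secreted MMP made by keratinocytes, had 127 and 148 counts in TCN1_OE and 141 and 78 counts in NC. That gave 2.40 and 3.14 FPKM in TCN1_OE and 2.21 and 2.11 FPKM in NC. The groups did not overlap, but TCN1_OE replicate 1 lay nearer to NC than to TCN1_OE replicate 2. Its log2 fold change of 0.35 ± 0.21 did not pass (edgeR adjusted p 0.543) and was 0.13 without TCN1_OE replicate 2 and 0.54 without TCN1_OE replicate 1.

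Among the inhibitors, TIMP3 (ENSG00000100234, chr22:32801701-32863043, plus strand) was the one with the larger difference. TIMP3 binds to the extracellular matrix and also blocks the sheddase ADAM17. It had 790 and 741 counts in TCN1_OE and 697 and 426 counts in NC, or 10.4 and 10.9 FPKM in TCN1_OE and 7.59 and 7.99 FPKM in NC. The spread within each line was small and the lines did not overlap.

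TIMP3 averaged 10.6 ± 0.40 FPKM in TCN1_OE and 7.79 ± 0.28 FPKM in NC (SD, n = 2 each). The difference was 0.45 ± 0.11 on the log2 scale, or 1.36-fold with a 95% interval of 1.14 to 1.63 (edgeR adjusted p 0.138). Over the 10 alternatives without a replicate term the adjusted p lay between 0.0535 and 0.375, so it did not pass in any of them.

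TIMP1 (ENSG00000102265, chrX:47582313-47586789), a soluble inhibitor of most secreted MMPs, was the most abundant TIMP. It had 29.9 and 28.5 FPKM in TCN1_OE and 29.9 and 31.3 FPKM in NC. TCN1_OE replicate 1 and NC replicate 1 were nearly equal at 29.85 and 29.92 FPKM, so the groups were separate by a very small margin. Its log2 fold change of -0.07 ± 0.11 (edgeR adjusted p 0.849) had a 95% interval from 0.801-fold to 1.13-fold, and was -0.04 without NC replicate 2 and -0.11 without NC replicate 1.

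TIMP2 (chr17:78852977-78925387), the inhibitor that also holds the MMP2 proenzyme on MMP14, had 4.76 and 4.46 FPKM in TCN1_OE and 4.75 and 3.97 FPKM in NC. The groups overlapped, and 10.0% of its exonic bases are under other annotated genes, CEP295NL among them. TIMP2 had a log2 fold change of 0.07 ± 0.13 (edgeR adjusted p 0.877), which was -0.04 without NC replicate 2. TIMP1 and TIMP2 thus gave values on either side of 0, with intervals that reach from 0.801-fold to 1.29-fold between them.

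**Figure D3:**
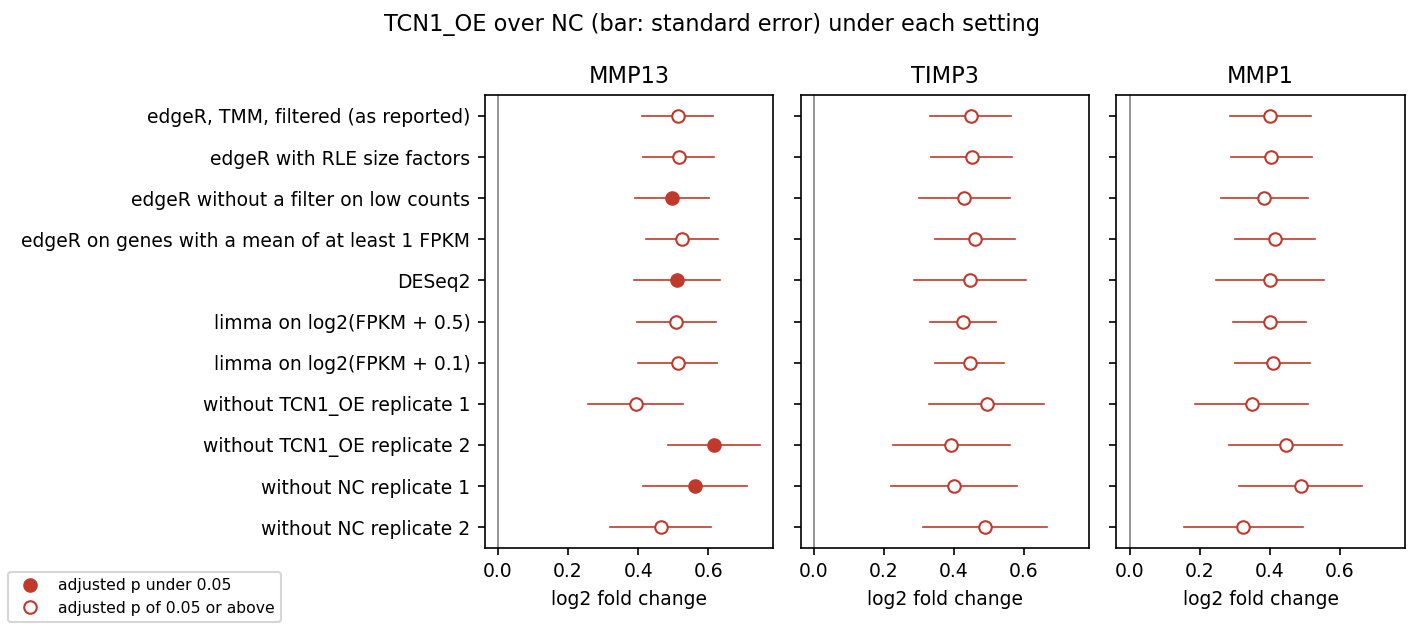
Log2 fold change of MMP13, TIMP3 and MMP1, TCN1_OE over NC, with its standard error, under each tool, filter, scaling and left-out library run without a replicate term; filled points have an adjusted p under 0.05. MMP13 is filled in 4 of 11 settings and TIMP3 and MMP1 in 0, while every point lies between 0.32 and 0.62.

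Summed over members, the MMP transcripts stood at 188.8 and 192.8 FPKM in TCN1_OE and 146.6 and 157.0 FPKM in NC. The group means were 190.8 ± 2.86 FPKM in TCN1_OE and 151.8 ± 7.33 FPKM in NC (SD, n = 2 each). MMP14 and MMP13 together made up 80.2 to 81.1% of this sum in every library. The TIMP sum was 45.0 and 43.9 FPKM in TCN1_OE and 42.3 and 43.2 FPKM in NC, of which TIMP1 was 64.9 to 66.4% in TCN1_OE and 70.8 to 72.3% in NC.

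The ratio of the TIMP sum to the MMP sum was 0.238 and 0.228 in TCN1_OE and 0.288 and 0.275 in NC. On FPKM the ratio in TCN1_OE was 0.826 times that in NC, and both TCN1_OE libraries were below both NC libraries. On CPM with TMM factors, which does not scale by gene length, it was 0.906 times that in NC. There the MMP sum was 1.23-fold and the TIMP sum 1.11-fold that in NC, against 1.26-fold and 1.04-fold on FPKM. No test was made of these sums, since the members were chosen with results known.

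Of the rest of the family, 12 MMP genes and TIMP4 were listed, and 7 of these MMP genes were tested. None passed edgeR, 5 values were positive and 2 negative, and the median log2 fold change was 0.05. MMP12 had 6.72 and 8.41 FPKM in TCN1_OE and 6.40 and 5.73 FPKM in NC, with a log2 fold change of 0.31 ± 0.19 that was 0.12 without TCN1_OE replicate 2 and 0.47 without TCN1_OE replicate 1. MMP21 and MMP25, both under 1 FPKM in every library, stood at 0.63 ± 0.39 and 0.58 ± 0.63, and 35.2% of the exonic bases of MMP25 are under its antisense gene. Both rested on few counts, between 4 and 31 a library: MMP21 was 0.40 without NC replicate 2 and 1.00 without NC replicate 1. MMP25 was -0.10 without TCN1_OE replicate 2, 0.22 without NC replicate 2, 1.08 without TCN1_OE replicate 1 and 1.31 without NC replicate 1.

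MMP2 (gelatinase A), the proenzyme that MMP14 activates, is given for its level and was chosen after its values were seen. It had 12.9 and 15.8 FPKM in TCN1_OE and 14.0 and 16.3 FPKM in NC, and a log2 fold change of -0.08 ± 0.13. Of all 19 MMP genes listed, 9 reached 1 FPKM in every library and 4 had at most 3 counts in each.

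The proteins that activate, bind or inhibit MMPs went both ways. Of 21 tested genes (proprotein convertases, plasminogen activators, serpins and surface partners), 0 passed edgeR, with a median log2 fold change of 0.00. At an unadjusted p under 0.05, 5 were higher and 4 lower, against 6.0% of all genes tested higher and 6.81% lower. PLAT, the tissue plasminogen activator whose product plasmin can activate pro-MMPs, had 2.18 and 2.12 FPKM in TCN1_OE and 1.34 and 1.14 FPKM in NC. This was 0.78 ± 0.17 on the log2 scale (edgeR adjusted p 0.0911).

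TFPI2, a matrix-bound inhibitor of plasmin and of some MMPs, had 1.09 and 0.749 FPKM in TCN1_OE and 2.21 and 1.66 FPKM in NC. This was -1.09 ± 0.30 on the log2 scale (edgeR adjusted p 0.161). LCN2, the lipocalin that forms a complex with MMP9, had 16.1 and 17.4 FPKM in TCN1_OE and 11.3 and 12.3 FPKM in NC, at 0.50 ± 0.14 and an adjusted p of 0.168. Groups did not overlap for any of these 3 genes, which were named for having the smallest p in the list. Among its 21 tested genes, 9 were higher and 6 lower without overlap in FPKM. Over all genes tested the shares were 21.7% higher and 21.0% lower. PLAT passed in 2 of the 10 alternatives without a replicate term and TFPI2 in 2.

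The ADAM and ADAMTS proteases, relatives of the MMPs that TIMP3 inhibits in part, had more negative than positive values. Of 11 tested, 7 were negative and 4 positive, with a median of -0.20, and 0 passed edgeR. Over all 15113 genes tested, 7505 were negative and 7608 positive. The gene with the smallest p, ADAMTS15, a protease of the proteoglycans aggrecan and versican, had 0.843 and 0.677 FPKM in TCN1_OE and 1.39 and 1.45 FPKM in NC. At -0.90 ± 0.22 on the log2 scale its adjusted p was 0.118 (edgeR), and it passed in 2 of 10 alternatives. ADAMTS1 and ADAM9 stood at -0.62 ± 0.24 and -0.20 ± 0.10.

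Transcription factors and signals known to act on MMP genes included 29 tested genes, of which 13 values were positive and 16 negative, with a median of -0.02 and 0 past the threshold. FOSL1 encodes an AP-1 subunit known to bind MMP1 and MMP13 promoters. It had 4.54 and 6.07 FPKM in TCN1_OE and 10.0 and 11.1 FPKM in NC, or -0.99 ± 0.19 on the log2 scale (edgeR adjusted p 0.0568). FOSL1 passed in 6 of 10 alternatives. Other AP-1 subunits in the list, chosen after their values were seen, had positive values with no overlap between the groups: FOS stood at 0.52 ± 0.19, JUND at 0.49 ± 0.17, FOSB at 0.43 ± 0.30 and FOSL2 at 0.26 ± 0.10, and none passed. JUN and JUNB stood at -0.14 ± 0.16 and 0.12 ± 0.12, with overlapping groups. Among the 29 tested genes of the list, 9 were higher and 9 lower without overlap in FPKM. Over all genes tested the shares were 21.7% higher and 21.0% lower.

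IL1A, the keratinocyte cytokine that induces collagenases in neighbouring fibroblasts, had 0.419 and 0.538 FPKM in TCN1_OE and 1.34 and 2.31 FPKM in NC. At -1.91 ± 0.40 on the log2 scale its adjusted p was 0.0765 (edgeR), and it passed in 4 of the 9 alternatives that gave a value. The transcription factor RUNX1 stood at -0.35 ± 0.09, with an adjusted p of 0.147.

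Among the matrix proteins that MMPs cut, 1 of 23 tested fell and 0 rose, against 0.212% of all 15113 genes tested lower and 0.285% higher. In this list 13 values were positive and 10 negative, with a median of 0.02. The gene that fell was FN1, which encodes fibronectin. It had 8.45 and 8.93 FPKM in TCN1_OE and 12.3 and 13.2 FPKM in NC, a difference of -0.55 ± 0.09 on the log2 scale (edgeR adjusted p 0.0431). FN1 no longer passed with limma on log2(FPKM + 0.5), at an adjusted p of 0.184, but limma called 0 of all genes lower. With edgeR on genes of at least 1 FPKM it also did not pass, at an adjusted p that rounds to 0.05. With DESeq2 it passed, at an adjusted p of 0.000379.

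**Figure D4:**
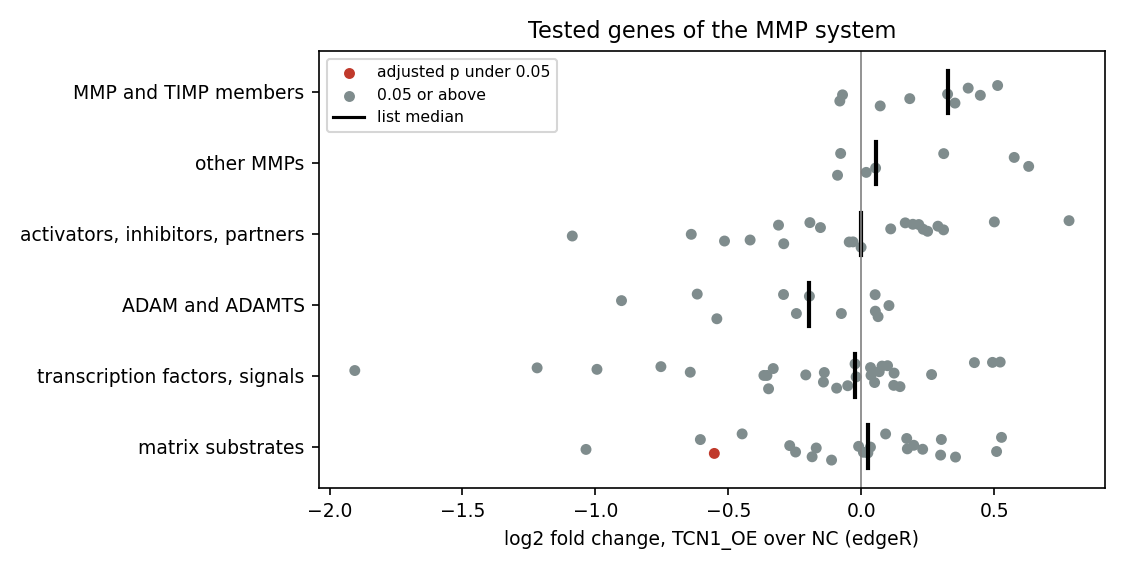
Log2 fold change, TCN1_OE over NC, of each tested gene in the MMP and TIMP set and in 5 related lists; black bars are list medians, and a red point has an edgeR adjusted p under 0.05. The median of the MMP and TIMP members is 0.32 and the other medians lie between -0.20 and 0.05, with FN1 the red point.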

How the data were processed

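PolyA RNA-seq of 2 TCN1_OE and 2 NC libraries was used. The submitters' processing notes name HISAT2, HTSeq 0.13.5 and the build GRCh38; annotation release and strand setting were not given in the sources used here. Strand is not marked by the NEBNext Ultra kit of the labels' protocols. Per the file headers, the authors deposited raw counts and FPKM per gene; FPKM is the count divided by gene length and library total. The implied length of MMP1 was 2738 bp, against 1970 bp in GENCODE 29, which gave the coordinates and exon overlaps here, so the authors' annotation differs.

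The counts were tested with edgeR 4.0.16 (R 4.3.3; quasi-likelihood, robust, TMM, filterByExpr with a minimum count of 10, group as the only term), which kept 15113 genes, with Benjamini-Hochberg adjustment over all of them and a threshold of 0.05. The ± of a log2 fold change is its standard error. Alternatives used DESeq2 1.42.0, limma 3.58.1 on log2(FPKM + 0.5) or log2(FPKM + 0.1), RLE factors, other filters, a replicate term and left-out libraries. The steps were also run on simulated data with the same spread for every gene and no replicate effect. That run does not show how they perform at the spread of these libraries. Members and lists were chosen with earlier results of these data known. All 10 members were named; in each list every gene that passed was named, or else the 3 with the smallest p.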

Additional observations from a re-analysis of the deposited data

How the results depend on the processing

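Of the 99 values of the 9 tested members under the 11 alternatives, 88 kept their direction and their side of the threshold, 9 newly passed it and 2 reversed. The reversals, both without NC replicate 2, were MMP10 at 0.067 and TIMP2 at -0.041; with 1 library left out MMP10 lay between -0.238 and 0.067 and TIMP2 between -0.041 and 0.202. Members called higher numbered 0 in the reported fit and 1, MMP13, with DESeq2, with edgeR without a filter on low counts, without TCN1_OE replicate 2 and without NC replicate 1, so that over the left-out libraries the count ran from 0 to 1. No member was called lower under any alternative run. Over all genes, 43 were higher and 32 lower; the counts were 200 and 275 without a filter, 95 and 109 with DESeq2, 1 and 0 with limma at either pseudocount, and 14 lower with edgeR on genes of at least 1 FPKM. Leaving out 1 library gave 104 to 188 higher and 106 to 142 lower. The cause of these shifts was not tested. The ratio of the TIMP to the MMP sum, TCN1_OE over NC, was 0.826, lay between 0.808 and 0.846 with 1 library left out, was 0.906 on CPM with TMM factors, and was 0.846 over the whole family in the files, an alternative added after seeing the data.

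The labels do not say that a replicate number marks a shared batch or day, so the lines share only a number. The replicate 1 minus replicate 2 differences of the lines had a correlation of 0.15 over 15113 genes. With the replicate number as a block, 1216 genes were higher and 1655 lower, or 8.05% and 11.0%, and 5 members were called higher: MMP13 at 0.52, TIMP3 at 0.45, MMP1 at 0.40, MMP14 at 0.18 and MMP15 at 0.32, with edgeR adjusted p from 7.22e-13 to 0.00507. That fit leaves 1 residual degree of freedom. Depth limits MMP9 most, at 6 to 12 counts a library.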
